A study of Mus musculus with 26 samples.

Results

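Photoreceptor precursors sorted from mouse retina as CD73-positive (CD73+) at postnatal day 10 (P10) were compared with cells sorted through the same gate at postnatal day 6 (P6). The comparison used 4 of the 26 libraries of the series, 2 for P10 and 2 for P6, chosen by age and by the sort that their labels name. Both ages came from C57BL/6 mice that carry EGFP joined to the N terminus of the repressor BLIMP1 (gene Prdm1) on both alleles, so the P6 cells hold the same knock-in as the P10 cells and no wild-type retina was compared. The gate was CD73 alone, with no GFP gate named for these ages. A CD73+ sort at P4, a GFP+CD73- sort at P4 and a GFP+ sort at P0 from the same strain, with 2 libraries each, served to place the change in time. The series as a whole covers 13 sorted groups of germ cell-like, intestinal, retinal and B lineage cells by 3' RNA-seq. No label states that the 2 libraries of an age came from separate animals or litters, and a p-value here speaks of the spread among these libraries alone.

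CD73, encoded by Nt5e, is an ectoenzyme on the surface of rod precursors and rods that turns AMP into adenosine, and it is used to enrich young rods from the developing retina. A mouse rod becomes light-sensitive after birth, when it builds an outer segment of stacked discs on a modified cilium and fills it with the proteins of phototransduction, among them the G protein transducin, phosphodiesterase and cyclic nucleotide-gated channels. The transcription factors OTX2, CRX, NRL and NR2E3 hold rods to this fate, and BLIMP1 keeps young photoreceptor precursors from taking the bipolar cell fate.

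The values are RPM, reads of a gene scaled to a common library total, from 3' libraries, so a level of 1 gene was compared between libraries and not with that of another gene. The most frequent value above 0 in a library was taken as the worth of 1 read. It was 0.260 and 0.336 RPM at P10, against 0.366 and 0.387 RPM at P6. This gave an estimate of 3.85 M and 2.97 M reads for the P10 libraries and 2.73 M and 2.58 M reads for the P6 libraries. Values under about 1 RPM therefore rest on a few reads. Fold changes are log2 differences of log2(RPM + 1), P10 minus P6, given ± standard error (n = 2 libraries per age) from a limma fit, and each p was adjusted over 10772 genes by the Benjamini-Hochberg method. A gene was called, and is said to have risen or fallen, at an adjusted p under 0.05 with a log2 fold change of at least 1 in size. In a sorted population, fewer cells of a type and less of an RNA per cell cannot be told apart.

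The sort marker and the reporter gene were near or under the call threshold between these ages. Nt5e had 396 and 396 RPM at P10, against 258 and 269 RPM at P6, a log2 fold change of 0.59 ± 0.27, adjusted p = 0.14, which was not called, although the 2 P10 libraries lay above both P6 libraries. Prdm1 had 86.0 and 80.4 RPM at P10, against 146 and 164 RPM at P6, and its log2 fold change of -0.89 ± 0.12 passed the p threshold (adjusted p = 9.8e-05) but not the fold threshold. Its step from P4 CD73+ to P6 was -0.86 ± 0.12 on the same scale, and the difference between the 2 steps was -0.03 ± 0.21 (adjusted p = 0.96), although the later step covers 4 days and the earlier 2.

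Of the 10772 genes tested, 391 rose at P10 (3.63%) and 796 fell (7.39%), so 11.0% were called. The counts of each list below stand beside these shares. The median log2 fold change over all tested genes was -0.11, and values of the 2 ages did not overlap for 6839 genes (63.5%). Falls outnumbered rises by a margin that depends on the scaling. With median-of-ratios scaling, which moved the median by 0.13, 502 genes rose and 632 fell, so that rises made up 44.3% of the calls instead of 32.9%, and with quantile normalization 603 rose and 674 fell, with rises at 47.2%. Of the genes called, 169 that rose and 417 that fell kept their call when any 1 of the 4 libraries was left out. The count of rises was 214 without P10 replicate 2 and 256 without P6 replicate 1.

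The step from P6 to P10 was set beside that from P4 CD73+ to P6, which shares the P6 libraries. In the earlier step 189 genes rose (1.75%) and 88 fell (0.817%). Across both steps 45 genes rose in each and 33 fell in each. The 2 steps differed, by the test of the difference itself, for 435 genes (4.04%), a count of 250 without P10 replicate 2, 114 without P6 replicate 1 and 88 without P6 replicate 2. For 45 genes the steps were called in opposite directions, 19 lower and then higher and 26 higher and then lower, so that the P6 libraries stood apart from both neighbours in age. The labels do not say whether the P6 animals or library preparation differed from the others in another way, which cannot be told apart from age. Of such genes 26 and 23 were found without P6 replicate 1 and without P6 replicate 2. The 45 genes include Gm3893, Klhl33, A930018M24Rik, Gm11546, Lrrc48, Vsx1, Myo7a, Hyou1 and Sc5d.

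**Figure D1:**
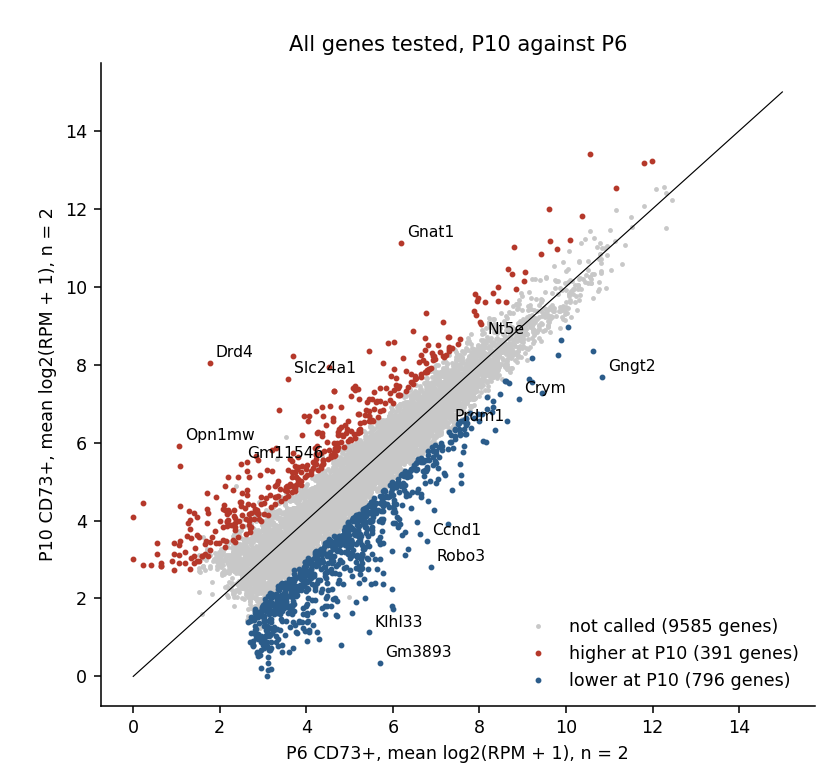
Mean log2(RPM + 1) of the 10772 tested genes in P10 CD73+ (vertical axis) against P6 CD73+ photoreceptor precursors (horizontal axis), with 2 libraries per age; red points were called higher at P10 (391) and blue points lower (796), and the line marks equal levels. Gnat1, Drd4 and Opn1mw stand far above the line, and Robo3, Klhl33 and Gm3893 lie far below it.

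Most rod phototransduction genes rose. Of 21 members, all 21 passed the filter on low values and 17 rose, none fell, and the list's median log2 fold change was 1.44, against -0.11 for all genes. Their summed level was 52211 and 60916 RPM at P10, against 19588 and 16718 RPM at P6, or 5.78% of the RPM in the lines used at P10 and 1.86% at P6. Leaving out any 1 of the 4 libraries left 16 of the 21 called higher, against 3.63% of all tested genes called higher with the 4 libraries. With quantile normalization 13 of the 21 were called higher, and with median-of-ratios scaling 18. The values of the 2 ages did not overlap for 20 of the 21, against 63.5% of all tested genes.

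Within the cascade, the rise was uneven. Gnat1, the rod transducin alpha subunit (Entrez ID 14685; chromosome 9, 107674437 to 107679634, GRCm38.p6), had 1689 and 2972 RPM at P10, against 81.2 and 63.9 RPM at P6, a log2 fold change of 4.94 ± 0.26, adjusted p = 1.1e-08. Its partners had smaller fold changes. The transducin beta gene Gnb1 had 3356 and 3819 RPM at P10, against 1373 and 1271 RPM at P6 (1.44 ± 0.14), and the gamma gene Gngt1 had 2338 and 2273 RPM at P10, against 949 and 657 RPM at P6 (1.54 ± 0.22). The alpha subunit's mean level at P6, 72.6 RPM, was thus a smaller share of its own P10 level than those of the beta and gamma subunits were of theirs.

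**Figure D2:**
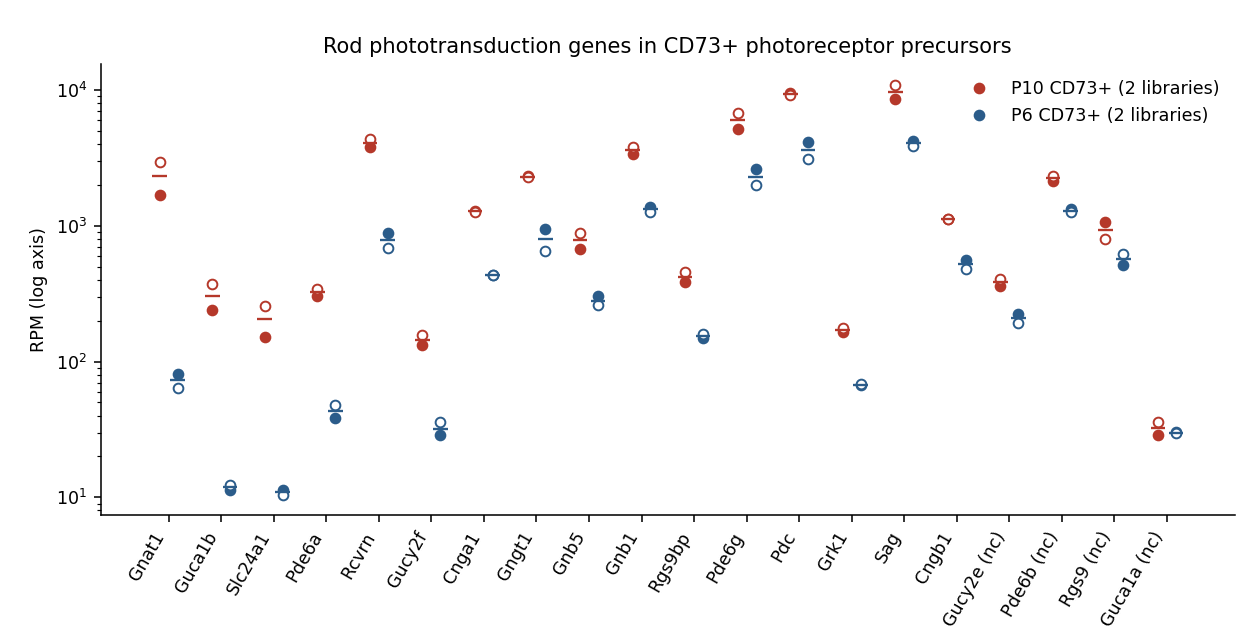
RPM on a log axis of 20 of the 21 rod phototransduction genes in each library of P10 CD73+ (red, left) and P6 CD73+ (blue, right) photoreceptor precursors, ordered by fold change; filled points are replicate 1, open points replicate 2, bars the mean, and (nc) marks genes that were not called. The gap between the ages is widest for Gnat1, Guca1b and Slc24a1 and closes towards the right, where Guca1a differs by less than the spread between libraries.

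The phosphodiesterase subunits differed in the same way. The catalytic subunit gene Pde6a rose by 2.90 ± 0.28, adjusted p = 3.3e-06, with 306 and 344 RPM at P10, against 38.4 and 47.6 RPM at P6. Pde6b, its catalytic partner, had 2152 and 2313 RPM at P10, against 1338 and 1253 RPM at P6 and was not called (0.79 ± 0.21, adjusted p = 0.014), since its fold change stayed under the threshold. The inhibitory subunit gene Pde6g rose by 1.38 ± 0.19. The cyclic nucleotide-gated channel genes Cnga1 and Cngb1 rose by 1.56 ± 0.21 and 1.12 ± 0.15. Cnga1 had 1295 and 1256 RPM at P10, against 430.4 and 433 RPM at P6, and its libraries agreed closely within each age.

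Genes that return the rod to its dark state or handle calcium ranged widely, between 4.54 (Guca1b) and 0.10 (Guca1a) on the log2 scale. Guca1b, a calcium-sensing activator of guanylate cyclase, had 239 and 373 RPM at P10, against 11.3 and 12.4 RPM at P6 (4.54 ± 0.35, adjusted p = 3.3e-07). Its neighbour in function, Guca1a, had 28.6 and 36.0 RPM at P10, against 30.0 and 29.8 RPM at P6, and its difference of 0.10 ± 0.27 was within the spread between libraries. Slc24a1, the sodium, calcium and potassium exchanger of the rod outer segment, had 151 and 258 RPM at P10, against 11.3 and 10.4 RPM at P6 and rose by 4.06 ± 0.43, adjusted p = 7e-06. Of the cyclases, Gucy2f rose by 2.14 ± 0.40, and Gucy2e, at 359 and 405 RPM at P10, against 223 and 193 RPM at P6, was not called (0.87 ± 0.23, adjusted p = 0.013). Recoverin (Rcvrn) rose by 2.37 ± 0.18, phosducin (Pdc) by 1.37 ± 0.16 and arrestin (Sag) by 1.25 ± 0.21. Grk1, a kinase of the shut-off of the light response, rose by 1.32 ± 0.34, adjusted p = 0.012, with 164 and 177 RPM at P10, against 67.0 and 68.5 RPM at P6, but its call was lost without any 1 of the 4 libraries. In the complex that speeds transducin shut-off, Gnb5 and the anchor Rgs9bp rose by 1.46 ± 0.15 and 1.44 ± 0.25, while Rgs9 itself was not called (0.71 ± 0.18, adjusted p = 0.011).

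The promoters of these genes were searched for the core letters bound by CRX and OTX2, TAATCC, on both strands. RefSeq promoter entries (GRCm38.p6; 250 bases before to 50 after a start site) were found for 29 genes of the rod phototransduction and outer segment lists, with 33 promoters, and 11 of those (33.3%) held the letters. They stood in 10.3% of 387 promoters of genes that rose, in 5.62% of 819 promoters of genes that fell, in 5.92% of 10899 promoters of all tested genes and in 7.06% of all 32851 promoters of the table. The letters TGCTGA, a part of the site of NRL, stood in 15.2% of the promoters of those lists and 23.5% of promoters of genes that rose. They stood in 13.3% of promoters of genes that fell, 14.8% of those of all tested genes and 19.5% of all 32851 promoters. The BLIMP1 letters AGNGAAAG stood in 18.2%, 7.49%, 7.57%, 7.41% and 8.63% of the same sets. A match is only a match of letters in this window, and no binding was measured here. The sequences show 6 called members of these lists that hold TAATCC in the 150 bases before the start site. The set may be incomplete, and whether Pde6a holds the letters there is not reported here. The sequences are written 5′ to 3′ on the strand of the gene, in the order of the fold changes. Capitals mark TAATCC or its reverse complement.
Gucy2f (chrX:142196937-142197086, - strand): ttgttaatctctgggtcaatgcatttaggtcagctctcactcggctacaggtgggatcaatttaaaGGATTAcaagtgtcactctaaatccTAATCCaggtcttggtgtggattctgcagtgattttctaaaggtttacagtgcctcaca
Gngt1 (chr6:3993858-3994007, + strand): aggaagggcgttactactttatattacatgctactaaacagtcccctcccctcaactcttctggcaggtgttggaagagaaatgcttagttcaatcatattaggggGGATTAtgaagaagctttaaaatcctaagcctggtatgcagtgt
Abca4 (chr3:122044310-122044459, + strand): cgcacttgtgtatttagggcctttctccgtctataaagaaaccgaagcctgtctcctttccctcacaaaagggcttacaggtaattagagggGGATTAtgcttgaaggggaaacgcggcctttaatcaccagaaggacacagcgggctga
Gnb5 (chr9:75306138-75306287, + strand): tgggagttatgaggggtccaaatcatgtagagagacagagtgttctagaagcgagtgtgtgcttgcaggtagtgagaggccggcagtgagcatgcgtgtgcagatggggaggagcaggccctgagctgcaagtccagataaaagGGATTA
Sag (chr1:87803530-87803679, + strand): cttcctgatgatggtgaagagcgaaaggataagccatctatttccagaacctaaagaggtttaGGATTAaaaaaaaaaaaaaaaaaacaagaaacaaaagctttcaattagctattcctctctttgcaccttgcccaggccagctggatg
Cngb1 (chr8:95306586-95306735, - strand): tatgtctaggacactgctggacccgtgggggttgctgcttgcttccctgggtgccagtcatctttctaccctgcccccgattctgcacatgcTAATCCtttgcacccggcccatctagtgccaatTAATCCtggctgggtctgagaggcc
In Gucy2f, Abca4 and Cngb1 a match begins 59, 58 and 58 bases before the start site, in Gngt1 44, in Sag 87 and in Gnb5 6, and Gucy2f and Cngb1 hold a further match 84 and 25 bases before it. These 6 genes rose by between 1.12 (Cngb1) and 2.14 (Gucy2f). Of the genes with the largest fold changes in the list, Gnat1 and Guca1b had no entry in the promoter table and were not searched.

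Some genes that build the outer segment rose and others were not called, beside 3.63% of all tested genes called higher and 7.39% lower. Of 20 genes of discs and matrix, 19 were tested, 8 rose, 11 were not called and none fell, with a median of 0.97, and leaving out 1 library left 6 to 10 called higher. Impg1, a matrix proteoglycan, had 388 and 434 RPM at P10, against 115 and 96.8 RPM at P6 (1.95 ± 0.22, adjusted p = 1.6e-05). Both P10 libraries lay above both P6 libraries. Abca4, the flippase that clears retinoid from discs, rose by 1.52 ± 0.18 with 855 and 964 RPM at P10, against 313 and 320.0 RPM at P6. The axonemal gene Rp1 rose by 1.19 ± 0.14 and Reep6, an endoplasmic reticulum protein of rods, by 1.34 ± 0.20. Prph2, the tetraspanin of disc rims, had 2181 and 2536 RPM at P10, against 1125 and 1058 RPM at P6 and rose by 1.11 ± 0.18, adjusted p = 0.00031, a call lost without P10 replicate 2. Its partner Rom1 was not called (0.81 ± 0.19, adjusted p = 0.0059), nor were Cdhr1 (0.78 ± 0.13), a cadherin of nascent discs, Prom1 (0.70 ± 0.15) or Tulp1 (0.42 ± 0.23). Fscn2 (1.53 ± 0.35) and the disc gene Prcd, listed as Gm11744 (1.01 ± 0.19), were also called, but not without P10 replicate 2 or without P6 replicate 2. Pcdh15 stood the other way, with 166 and 159 RPM at P10, against 229.9 and 370.2 RPM at P6 (-0.84 ± 0.21, adjusted p = 0.01), and was not called.

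In the machinery that moves proteins to the outer segment, 17 of 18 genes were tested, 2 rose and none fell (median 0.62). Over all tested genes 3.63% rose and 7.39% fell. Aipl1, the chaperone of phosphodiesterase, had 1867 and 2283 RPM at P10, against 419 and 466 RPM at P6 and rose by 2.22 ± 0.13, adjusted p = 3.7e-08. Myo7a, an unconventional myosin of the connecting cilium, had 129 and 112 RPM at P10, against 20.9 and 18.2 RPM at P6 (2.57 ± 0.21, adjusted p = 5.9e-07), but its level in the P4 CD73+ libraries was 69.8 and 47.6 RPM, so the P6 libraries were below both neighbours in age. Unc119, which carries lipid-modified transducin, had 2543 and 1948 RPM at P10, against 1733 and 1813 RPM at P6 and was not called. In the cilium and intraflagellar transport list 1 of 37 genes was called (Bbs7, 1.08 ± 0.21, adjusted p = 0.0015, not called without P10 replicate 2 or without P6 replicate 1), and the median was 0.42. Among the 8 genes of the retinoid cycle, Rdh12, a retinol dehydrogenase of the inner segment, rose by 1.69 ± 0.24, adjusted p = 0.00012 with 742 and 852 RPM at P10, against 264 and 228 RPM at P6, and Dhrs3 rose by 1.32 ± 0.27. Rbp3, the retinoid carrier between photoreceptors and pigment epithelium, had 5408 and 6274 RPM at P10, against 4746 and 3902 RPM at P6 and was not called (0.44 ± 0.16), and the other 5 lay between -0.23 (Rdh13) and 0.51 (Retsat).

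Ion transport genes of the inner segment included 2 with large changes. Of 14 genes, 5 rose and none fell (median 0.77), beside 3.63% of all tested genes called higher and 7.39% lower. Kcnj14, an inward rectifier potassium channel, had 43.4 and 39.7 RPM at P10, against 2.20 and 0.387 RPM at P6 (4.34 ± 0.50, adjusted p = 1.7e-05), where the P6 replicate 2 value stands for a single read. Slc6a6, the taurine transporter, had 392 and 558 RPM at P10, against 93.7 and 81.8 RPM at P6 (2.40 ± 0.19, adjusted p = 3.8e-07). Kcnv2, a potassium channel subunit of photoreceptors, rose by 1.31 ± 0.24. Slc4a7, a bicarbonate transporter, rose by 1.09 ± 0.17, a call lost without P10 replicate 2 or without P6 replicate 1. The pump subunit gene Atp1b2 had 2097 and 2091 RPM at P10, against 1645 and 1714 RPM at P6 and was not called.

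The photoreceptor's ribbon synapse, where glutamate is released onto bipolar and horizontal cells, held 6 rises among 28 tested genes (29 listed), with no fall and a median of 0.36. Rises made up 3.63% of all tested genes. Cabp4, a calcium-binding regulator of the presynaptic calcium channel, had 93.1 and 131 RPM at P10, against 20.1 and 15.5 RPM at P6 and rose by 2.58 ± 0.37, adjusted p = 0.00013. Cplx4, a complexin of ribbon synapses, had 162 and 166 RPM at P10, against 46.5 and 27.5 RPM at P6 (2.16 ± 0.30, adjusted p = 8.5e-05). Both genes were higher in each P10 library than in either P6 library. The active zone gene Rims2 rose by 1.44 ± 0.21 and the vesicular glutamate transporter Slc17a7 by 1.28 ± 0.25. The calcium channel genes Cacnb2 (1.41 ± 0.30) and Cacna1f (1.04 ± 0.21) rose too, with calls lost without P10 replicate 2 and, for Cacna1f, also without P6 replicate 1. Stx3 and Snap25, members of the fusion machinery, were not called (0.69 ± 0.12 and 0.43 ± 0.14).

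Among photoreceptor transcription factors, Nrl, Nr2e3, Crx and Otx2 were not called, while others were. Of 20 listed, 18 were tested, 2 rose and 3 fell, and the median was 0.09, with a sign that turned to -0.14 under quantile normalization. All tested genes held 3.63% rises and 7.39% falls. Nrl had 3670.0 and 3431 RPM at P10, against 3100.3 and 2729 RPM at P6 (0.29 ± 0.14, adjusted p = 0.17), Nr2e3 had 784 and 875 RPM at P10, against 729 and 644 RPM at P6 (0.27 ± 0.16, adjusted p = 0.26), and Crx had 2479 and 1333 RPM at P10, against 1944 and 1618 RPM at P6 (0.04 ± 0.21, adjusted p = 0.93). The 2 ages overlapped for Crx and not for Nrl or Nr2e3, and all 3 had an adjusted p above 0.05. Otx2 had 603 and 589.5 RPM at P10, against 1127 and 1106 RPM at P6, and its difference of -0.90 ± 0.12, adjusted p = 9.3e-05 passed the p threshold but not the fold threshold. Esrrb, an orphan nuclear receptor needed for rod survival, had 219.7 and 269 RPM at P10, against 28.9 and 16.6 RPM at P6 and rose by 3.41 ± 0.50, adjusted p = 0.00016. Rora, a retinoid-related orphan receptor, rose by 1.31 ± 0.17, adjusted p = 5.8e-05 with 157 and 193 RPM at P10, against 73.2 and 65.8 RPM at P6. The falls were Onecut2 (-1.77 ± 0.29), Rxrg (-1.44 ± 0.26) and Sall3 (-1.34 ± 0.34), a factor of early or cone precursors in each case. Sall3 was not called without P10 replicate 1, P10 replicate 2 or P6 replicate 1.

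Genes named for cones moved in both directions. Of 13 listed, 11 were tested, 2 rose and 2 fell, and the median was 0.31. Among all tested genes 3.63% rose and 7.39% fell. Opn1mw, the green cone opsin (chromosome X, 74127466 to 74150756), had 41.3 and 84.8 RPM at P10, against 1.46 and 0.774 RPM at P6, a log2 fold change of 4.85 ± 0.48, adjusted p = 4.3e-06. Pde6c, the cone phosphodiesterase, had 66.5 and 74.7 RPM at P10, against 24.9 and 15.1 RPM at P6 (1.81 ± 0.30, adjusted p = 0.00045). Gngt2, the cone transducin gamma subunit, went the other way, with 280.3 and 151 RPM at P10, against 2016 and 1657 RPM at P6 (-3.15 ± 0.21, adjusted p = 7.1e-08), and Ccdc136 had 65.2 and 61.9 RPM at P10, against 247 and 329.7 RPM at P6 (-2.15 ± 0.18, adjusted p = 8.6e-07). For all 4 genes the P10 and P6 libraries did not overlap, as for 63.5% of all tested genes. Other cone genes were not called, among them Opn1sw, the blue cone opsin, with 219.7 and 306 RPM at P10, against 179 and 244 RPM at P6, Arr3, cone arrestin, with 75.3 and 51.1 RPM at P10, against 43.9 and 44.1 RPM at P6, and Gnat2, the cone transducin alpha subunit, with 70.4 and 66.0 RPM at P10, against 45.0 and 58.4 RPM at P6. Gngt2 held 2107 and 1910 RPM in the P4 CD73+ libraries, so its fall came in the later step (difference of steps -3.01 ± 0.36, adjusted p = 0.00022).

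**Figure D3:**
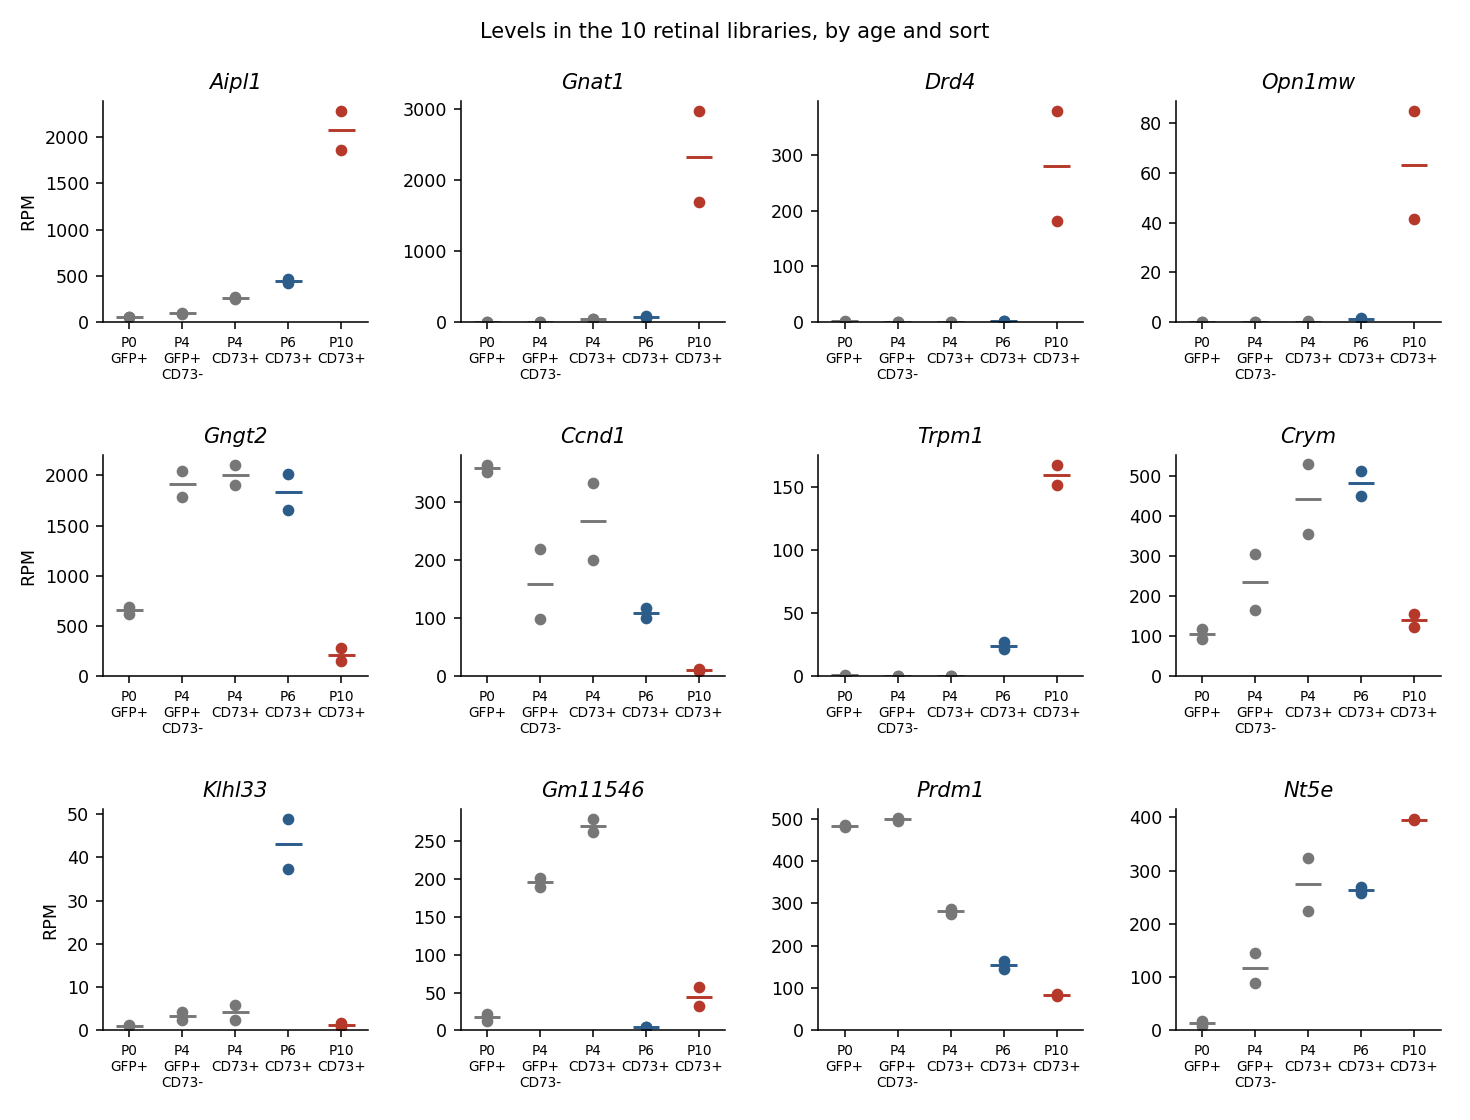
RPM of 12 genes in the 10 retinal libraries, by age and sort from P0 to P10; points are libraries, bars the mean of 2, red is P10 CD73+, blue P6 CD73+ and grey the younger sorts. Aipl1, Gnat1, Drd4 and Opn1mw are highest at P10, Gngt2 and Crym drop after P6, Trpm1 begins at P6, and Klhl33 and Gm11546 set the P6 libraries apart from both neighbours in age.

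Energy metabolism held a few large changes in lists whose other genes were not called. Of 25 tested genes of glycolysis and lactate transport (26 listed), 4 rose and 3 fell, and the median was 0.06. Rises made up 3.63% of all tested genes and falls 7.39%, which holds for each list of this paragraph. Pfkfb2, which makes the activator of phosphofructokinase, had 302 and 464 RPM at P10, against 56.9 and 60.4 RPM at P6 and rose by 2.65 ± 0.24, adjusted p = 1.5e-06. Pfkfb3, another gene of that enzyme family, had 5.97 and 3.70 RPM at P10, against 22.0 and 20.1 RPM at P6 and fell (-1.94 ± 0.35, adjusted p = 0.00084). Slc16a1, the lactate transporter MCT1, had 84.7 and 104 RPM at P10, against 15.7 and 15.3 RPM at P6 and rose by 2.52 ± 0.26, adjusted p = 6.9e-06, and Slc16a3, the transporter MCT4, had 19.5 and 13.8 RPM at P10, against 44.3 and 33.3 RPM at P6 and fell (-1.18 ± 0.24, adjusted p = 0.0023, a call lost without P10 replicate 2 or without P6 replicate 1). Within both pairs, then, 1 gene rose and the other fell. Ldhb fell by 1.23 on the log2 scale, while Ldha and Gapdh, at 0.00 ± 0.16 and 0.09 ± 0.18, were not called. Hk2 rose by 1.28 ± 0.38, a call lost without any 1 of the 4 libraries. None of 55 tested genes of oxidative phosphorylation was called in either direction by limma, with 5 at an unadjusted p under 0.05 and a median of -0.07 that turned to 0.06 under median-of-ratios scaling. Of all 10772 tested genes, 3672 had an unadjusted p under 0.05. In fatty acid synthesis 3 of 16 tested genes fell (median -0.47), namely Scd2 (-1.34 ± 0.25), Fads1 (-1.18 ± 0.16) and Fasn (-1.12 ± 0.16, not called without P6 replicate 2). In cholesterol synthesis 1 of 17 rose, Sc5d (12.8 and 24.3 RPM at P10, against 4.08 and 3.29 RPM at P6), which had been at 13.3 and 9.04 RPM at P4.

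Many genes of dividing and neurogenic cells fell. In the cell cycle list 28 of 36 genes were tested, 17 fell and 11 were not called, with no rise and a median of -1.33. Ccnd1, cyclin D1, had 8.57 and 11.8 RPM at P10, against 119 and 99.8 RPM at P6 and fell by 3.31 ± 0.29 (adjusted p = 1.2e-06). Mki67, the proliferation marker Ki-67, had 2.60 and 0.336 RPM at P10, against 14.6 and 16.6 RPM at P6 (-2.92 ± 0.43, adjusted p = 0.00015), and the kinase gene Cdk1 had 1.04 and 1.68 RPM at P10, against 9.88 and 8.13 RPM at P6 (-2.09 ± 0.44, adjusted p = 0.003). Pcna, a clamp of DNA replication and repair, had 195 and 185 RPM at P10, against 159.9 and 164 RPM at P6 and was not called. In the earlier step, from P4 CD73+ to P6, 10 of these 28 genes had fallen, against 0.817% of all tested genes.

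Of the progenitor and Notch genes, 24 of 28 were tested, 16 fell and 1 rose, with a median of -1.99. Over all tested genes 3.63% rose and 7.39% fell. The limit of the filter given for the cell cycle list holds here too, for Neurog2 among others. The summed level of all 28 genes was 2128 and 1839 RPM at P10, against 3920 and 3869 RPM at P6. The gene that rose, named after its value was seen, was Gadd45a, a stress-response gene. Hes5, a Notch effector, had 4.68 and 6.06 RPM at P10, against 55.6 and 52.2 RPM at P6 (-3.12 ± 0.23, adjusted p = 1.8e-07). The proneural factor gene Neurog2 had 2.08 and 2.02 RPM at P10, against 21.2 and 20.1 RPM at P6 and fell by 2.83 on the log2 scale. In all 24 tested genes the P10 and P6 libraries did not overlap, against 63.5% of all tested genes. In the step from P4 CD73+ to P6, 1 of these genes was called higher and none lower. The list's median in that step was -0.48, against 0.02 for all tested genes. Its mean summed level went from 4514 RPM at P4 CD73+ to 3894 RPM at P6. The later step was lower than the earlier one in 11 of the 24, against 314 of all 10772 tested genes.

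Genes of the immature neuron's cytoskeleton and adhesion followed. Of 28 tested (31 listed), 11 fell and none rose (median -0.75), beside 7.39% of all tested genes called lower and 3.63% higher. Stmn1, which destabilises microtubules, had 378 and 280.0 RPM at P10, against 1627 and 1523 RPM at P6 (-2.27 ± 0.16, adjusted p = 1.2e-07), and Cd24a, a surface protein of young neurons, had 38.2 and 18.5 RPM at P10, against 161 and 167 RPM at P6 (-2.58 ± 0.25, adjusted p = 3.2e-06). Elavl3, Nfib and Marcksl1 fell by 2.36, 2.08 and 1.66. From P4 to P6, 3 of the 28 had risen and none had fallen, against 1.75% and 0.817% of all tested genes. The test of the difference between the steps was passed by 14 of the 28, each lower in the later step. Of all 10772 tested genes, 314 were called lower in that test.

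Of the genes with the largest changes, several belong to no list above. Drd4, the dopamine D4 receptor of photoreceptors (chromosome 7, 141291974 to 141296464), had 181 and 379 RPM at P10, against 2.93 and 1.93 RPM at P6, the largest log2 fold change among genes with at least 20 RPM (6.28 ± 0.50, adjusted p = 3.7e-07). In the earlier step it had not been called (0.76 ± 0.50), and the steps differed by 5.51 ± 0.86 (adjusted p = 0.0016). P10 replicate 2 was higher than replicate 1 for Drd4, and the same was seen for Gnat1, Opn1mw and Kcng4. Kcng4, a modifier subunit of potassium channels, had 12.5 and 34.0 RPM at P10, against 0.366 and 0 RPM at P6 (4.22 ± 0.54, adjusted p = 4.7e-05), where a P6 library had no read. Cds1, an enzyme of phosphoinositide synthesis, had 95.6 and 137 RPM at P10, against 9.52 and 9.29 RPM at P6 (3.47 ± 0.39, adjusted p = 1.4e-05), and Car8, a carbonic anhydrase-related protein, had 22.6 and 27.6 RPM at P10, against 2.20 and 2.32 RPM at P6 (2.99 ± 0.44, adjusted p = 0.00017). Gm4792 had 9.35 and 40.0 RPM at P10, against 0.732 and 1.55 RPM at P6 (3.29 ± 0.88, adjusted p = 0.014), a call lost without P10 replicate 2 or without either P6 library. Gm11546, the last of the 12 largest rises, had 56.8 and 31.9 RPM at P10, against 4.39 and 4.84 RPM at P6, and 279 and 262 RPM in the P4 CD73+ libraries, so its rise left it below its earlier level.

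The 12 largest falls held genes of several functions. Robo3, a receptor of axon guidance (chromosome 9, 37416045 to 37433436), had 7.01 and 5.05 RPM at P10, against 93.7 and 144 RPM at P6 (-4.07 ± 0.21, adjusted p = 1.1e-08), and the ephrin receptor gene Epha8 had 4.42 and 1.01 RPM at P10, against 63.0 and 63.5 RPM at P6 (-4.28 ± 0.29, adjusted p = 7.7e-08). The rule that named these falls took only genes whose P10 and P6 libraries did not overlap. Insm2, a zinc finger factor of neuroendocrine cells, had 3.64 and 1.68 RPM at P10, against 54.2 and 70.4 RPM at P6 (-4.15 ± 0.24, adjusted p = 3.7e-08). Ece1, the endothelin-converting enzyme, had 2.61 and 5.16 RPM at P10, against 54.6 and 69.7 RPM at P6 (-3.73 ± 0.23, adjusted p = 4e-08), Mmp14, a membrane-bound metalloprotease, had 1.56 and 2.69 RPM at P10, against 34.0 and 30.2 RPM at P6, and Tead2, a factor of the Hippo pathway, had 4.68 and 3.70 RPM at P10, against 54.2 and 53.8 RPM at P6. Miat, a long noncoding RNA of retinal neurons, had 17.9 and 10.8 RPM at P10, against 113 and 209 RPM at P6 (-3.38 ± 0.33, adjusted p = 3.5e-06), and 3110035E14Rik had 5.97 and 1.35 RPM at P10, against 38.1 and 41.4 RPM at P6. For these 8 genes, the step from P4 to P6 was between -2.13 (Epha8) and 0.12 (3110035E14Rik) on the log2 scale. They also held Ccnd1 and 3 genes at which the P6 libraries stood apart, Gm3893 (0.19 and 0.336 RPM at P10, against 32.7 and 78.8 RPM at P6), Klhl33 (0.779 and 1.68 RPM at P10, against 37.3 and 48.8 RPM at P6) and A930018M24Rik (1.30 and 0.336 RPM at P10, against 23.1 and 31.0 RPM at P6). In the P4 CD73+ libraries these 3 genes lay at or below 5.89 RPM.

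Among housekeeping functions, most genes were not called. Over all tested genes 3.63% rose and 7.39% fell. In chromatin and nuclear lamina, 1 of 34 tested genes rose and 4 fell (median -0.38), beside 11.0% of all tested genes called in either direction, and 2 fell without P10 replicate 2 or under median-of-ratios scaling. Hist1h2bc, a histone gene with near-identical copies whose reads may be shared, had 106 and 160.3 RPM at P10, against 58.5 and 39.1 RPM at P6, and Ezh2, the methyltransferase of Polycomb, fell by 1.11 with 68.1 and 58.2 RPM at P10, against 127 and 148 RPM at P6. In neural splicing factors 2 of 17 rose, Mbnl1 (1.42 ± 0.21) and Msi2 (1.21 ± 0.20, not called without P10 replicate 2), and Rbfox2 fell, with 3.12 and 0.673 RPM at P10, against 10.6 and 13.5 RPM at P6. None of 78 tested cytosolic ribosomal protein genes was called by limma, since no log2 fold change reached 1 in size, although 55 of them had an unadjusted p under 0.05. Of all 10772 tested genes, 3672 had an unadjusted p under 0.05. The summed level of the ribosomal protein genes was 48170 and 48499 RPM at P10, against 67576 and 61524 RPM at P6, and their median was -0.44. In endoplasmic reticulum folding 1 of 22 fell (Hyou1, 18.4 and 18.8 RPM at P10, against 70.6 and 58.8 RPM at P6, and 12.7 and 13.8 RPM at P4), while Hspa5 had 438 and 387 RPM at P10, against 395 and 409 RPM at P6. Of 21 antioxidant genes 3 peroxiredoxins fell, Prdx2, Prdx4 and Prdx6 (by 1.07, 1.22 and 1.43), and Nxnl1, which encodes rod-derived cone viability factor, rose by 1.05 ± 0.20, a call lost without P10 replicate 1 or without P6 replicate 2. In apoptosis 1 of 16 tested genes rose, a call lost without any 1 of the 4 libraries, and 2 fell, against 11.0% of all tested genes called, among the falls Bad, a death-promoting member of the BCL2 family, with 22.6 and 9.76 RPM at P10, against 48.3 and 25.9 RPM at P6 (-1.19 ± 0.41, adjusted p = 0.048, a call lost without P10 replicate 2 or without P6 replicate 1). None of 6 tested genes of MHC class I and interferon response (19 listed) was called by limma, and 0 had an unadjusted p under 0.05.

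**Figure D4:**
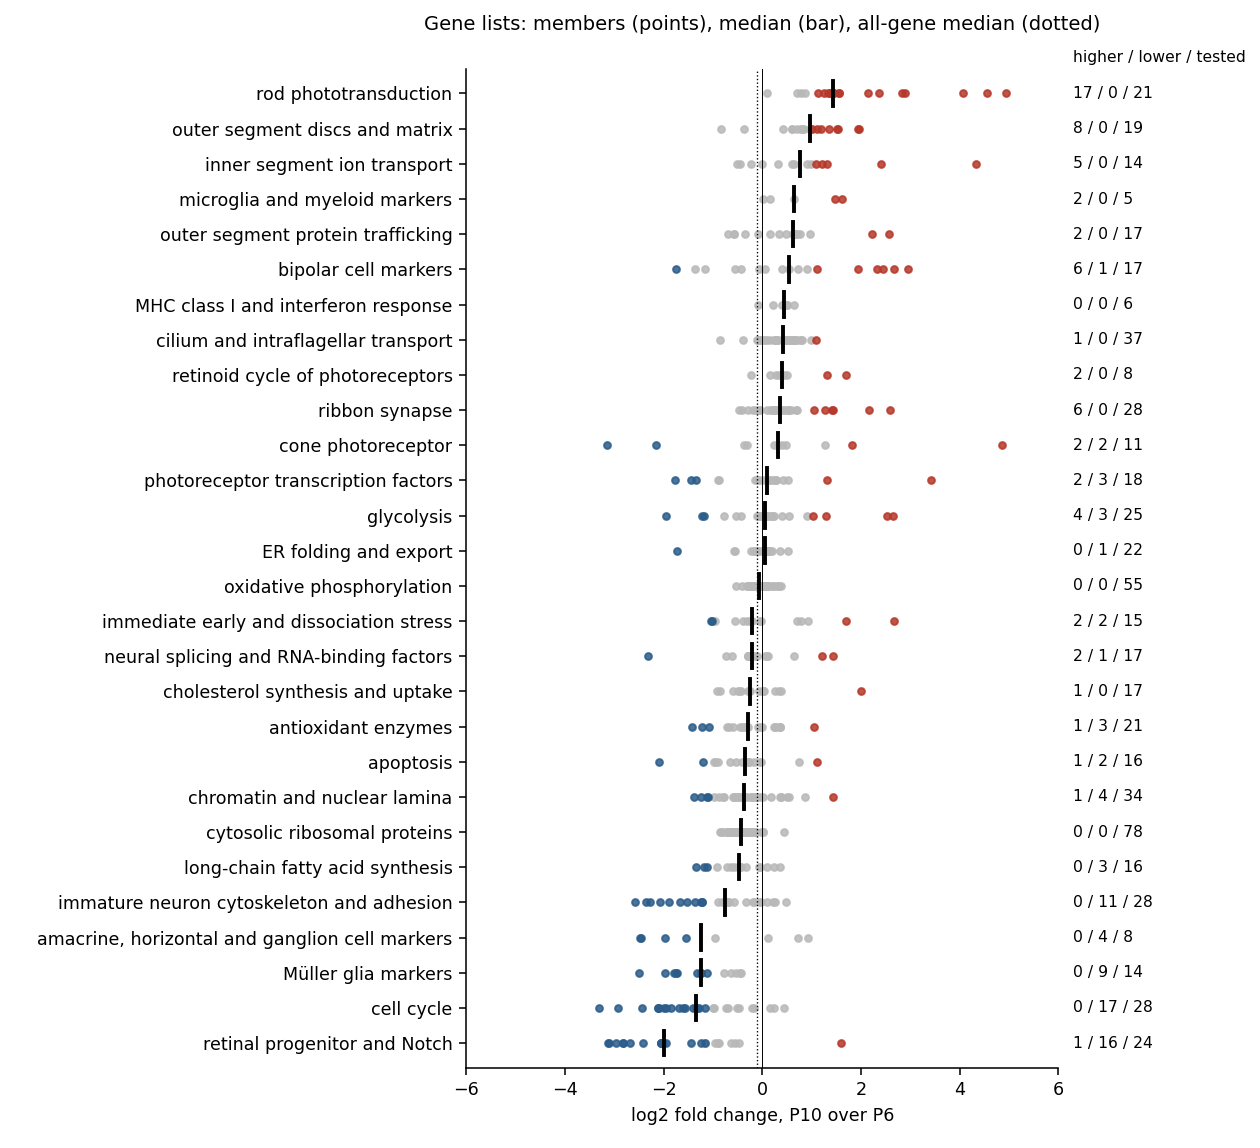
Log2 fold change, P10 over P6, of the tested members of each list with at least 5 of them; points are genes (red called higher, blue called lower, grey not called), black bars the list's median, the dotted line the median of all tested genes, and the numbers at the right count genes higher, lower and tested. Rod phototransduction has the highest median (1.44) and the progenitor and Notch list the lowest (-1.99).

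Markers of other retinal cells also moved between the ages. Bipolar cell genes held 6 rises and 1 fall among 17 tested (18 listed, median 0.53). Over all tested genes 3.63% rose and 7.39% fell. Trpm1, the transduction channel of ON bipolar cells, had 151 and 167 RPM at P10, against 21.2 and 27.1 RPM at P6 (2.68 ± 0.39, adjusted p = 0.00014), Pcp2 had 160.3 and 176 RPM at P10, against 36.2 and 29.4 RPM at P6 (2.33 ± 0.25, adjusted p = 8.3e-06), and Cabp5, a calcium-binding protein of bipolar cells, had 107 and 81.4 RPM at P10, against 23.1 and 24.0 RPM at P6 (1.94 ± 0.27, adjusted p = 9.2e-05). Their libraries did not overlap, as for 63.5% of all tested genes. Vsx1, a factor of cone bipolar cells, had 13.8 and 11.4 RPM at P10, against 38.4 and 51.5 RPM at P6 and fell (-1.74 ± 0.57, adjusted p = 0.039, lost without any 1 library), while Isl1, a factor of ON bipolar cells, had 232 and 209.6 RPM at P10, against 149 and 156 RPM at P6 and was not called. The summed level of the list was 2071 and 1757 RPM at P10, against 1493 and 1557 RPM at P6, and it had averaged 392 RPM at P4 in the CD73+ sort. From P4 to P6, 13 of the 17 genes rose, against 1.75% of all tested genes. Bipolar genes thus made up 0.196% of the RPM at P10 and 0.157% at P6. Their part in the changes of the synapse list was not tested.

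Müller glia markers fell in 9 of 14 tested genes (median -1.25), and 5 to 10 were called when 1 library was left out. Sox9 had 3.38 and 7.13 RPM at P10, against 31.1 and 33.9 RPM at P6, Vim 61.0 and 57.9 RPM at P10, against 192 and 209 RPM at P6 and Crym 156 and 123 RPM at P10, against 511 and 450.1 RPM at P6, and the summed level of the 16 genes was 617 and 719 RPM at P10, against 1685 and 1545 RPM at P6. Progenitors express several of these genes too, and the part of the 1 cell type or the other in these falls was not tested. Beside this list and those that follow, 3.63% of all tested genes rose and 7.39% fell. Of 22 amacrine, horizontal and ganglion cell markers 8 were tested, 4 fell and 4 were not called, with 3 of the 8 above 0 and Nefl, named after its value was seen, the highest (9.35 and 7.74 RPM at P10, against 2.93 and 5.42 RPM at P6, 0.92 ± 0.42, adjusted p = 0.14). Without P6 replicate 1 there were 2 falls, and under quantile normalization 2 genes were called higher. Gad2, an enzyme of GABA synthesis, fell (2.73 and 1.68 RPM at P10, against 13.9 and 19.7 RPM at P6), and Calb1, Pou4f2 and Pou4f3 were at 0 in all 4 libraries. The list's sum was 176 and 169.6 RPM at P10, against 308 and 287 RPM at P6. The endothelial receptor gene Kdr, the only tested one of 13 endothelial and pericyte markers, had 19.7 and 15.5 RPM at P10, against 60.4 and 69.3 RPM at P6 and fell (-1.83 ± 0.31), and Cdh5 was at 0 throughout. Of 12 pigment epithelium markers 3 were tested and 1 fell, Tyrp1 (0.26 and 2.02 RPM at P10, against 6.22 and 7.35 RPM at P6). Dct, with 7.01 and 6.39 RPM at P10, against 8.05 and 4.26 RPM at P6, and Rlbp1, with 149 and 177 RPM at P10, against 294 and 263 RPM at P6, were not called, and Mlana and Tyr were at 0.

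**Figure D5:**
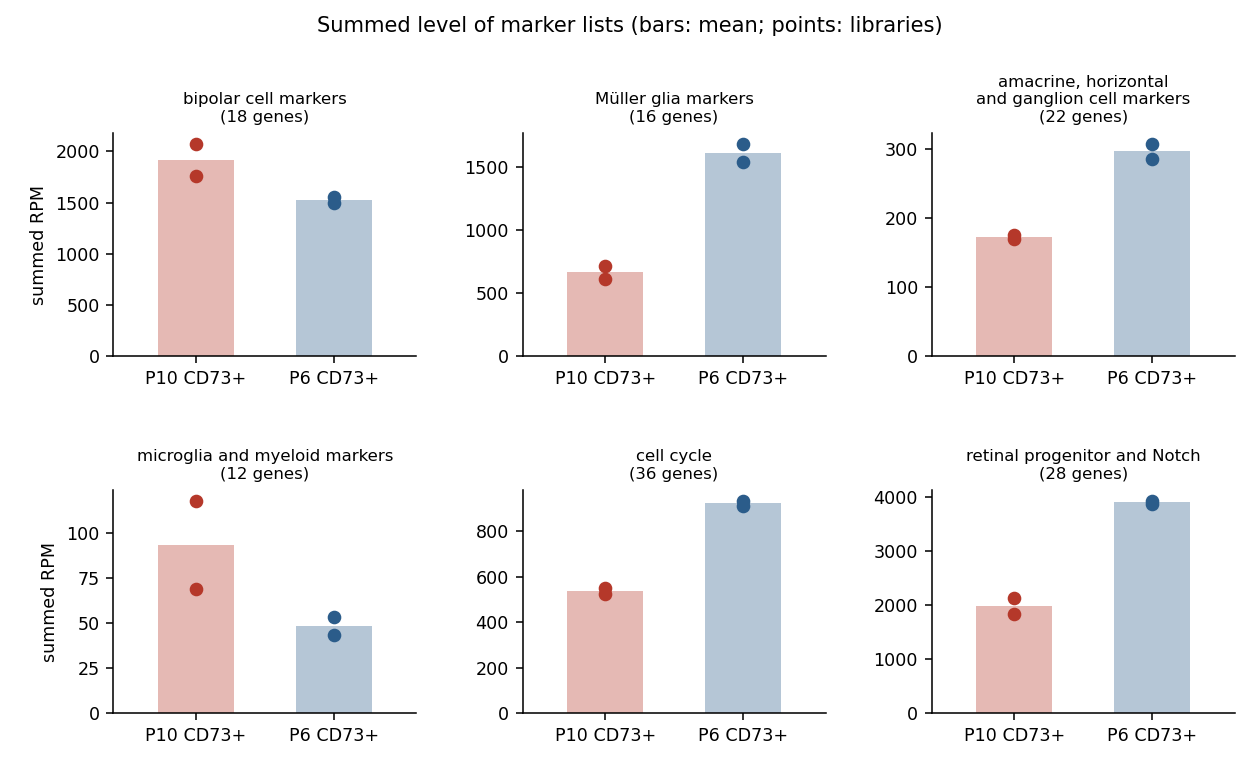
Summed RPM of 6 lists in each library of P10 CD73+ (red, left) and P6 CD73+ (blue, right) photoreceptor precursors; bars are means of 2 libraries and points the libraries. The Müller glia, cell cycle and progenitor sums are lower in both P10 libraries than in either P6 library, and the bipolar and microglia sums are higher.

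Of 12 microglia and myeloid markers 5 were tested and 2 rose. Ctss had 23.1 and 37.7 RPM at P10, against 7.69 and 10.4 RPM at P6 (1.62 ± 0.44, adjusted p = 0.015), and C1qc had 11.2 and 15.5 RPM at P10, against 4.39 and 3.87 RPM at P6. Leaving out 1 library left 0 or 1 of them called. The sum was 68.6 and 117.5 RPM at P10, against 43.6 and 53.2 RPM at P6. Of 15 tested genes of the immediate early and dissociation stress list, 2 rose and 2 fell, against 3.63% and 7.39% of all tested genes. The heat shock genes Hspa1a and Hspa1b, near-identical copies between which reads may be split, had 34.2 and 61.1 RPM at P10, against 4.64 and 8.58 RPM at P6 for Hspa1a and 5.48 and 7.71 RPM at P10, against 1.62 and 1.03 RPM at P6 for Hspa1b. Jun and Ier2 fell by 1.01 and 1.05, calls lost under median-of-ratios scaling and under quantile normalization, and Egr1, at 89.4 and 151 RPM at P10, against 118 and 163 RPM at P6, was not called. The part of these transcripts in the other changes was not tested. Neither the 3 tested erythroid genes nor the lens crystallin Cryab were called by limma, and 0 of them had an unadjusted p under 0.05, against 3672 of all 10772 tested genes.

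In the rod phototransduction list 8 of 21 genes had already risen from P4 to P6 (median 0.80), against 1.75% of all tested genes. The later step was larger than the earlier one for 6 of the 21, among them Gnat1, Guca1b, Pdc, Pde6a and Gnb1. Of all 10772 tested genes, 121 were called higher in that test of the difference. Gnat1 was 0.75 ± 0.26 in the earlier step and differed between steps by 4.19 ± 0.44 (adjusted p = 7e-05). Slc24a1 was 2.79 ± 0.43 in the earlier step, and no difference between steps was called (1.27 ± 0.74, adjusted p = 0.37). These counts are of steps that cover 4 and 2 days, and no rate per day was tested.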

How the data were processed

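The 4 libraries compared, and 6 further retinal libraries, were made by 3' RNA-seq from sorted cells, with 1 ng of RNA as input to the amplification, per the labels. The authors deposited 1 table with an expression signal in RPM, per the file headers. The submitters' processing notes list TopHat 1.4.1, Cufflinks 2.2.0, cutadapt 1.11 and Bowtie 1.0.1 with the build mm10. How reads shared between genes were counted and whether strand was used are not given in the sources used here. Of 26310.0 lines, 1164 (4.42%) whose values were moved against the header or that were spike-ins were left out, and 25146 were used. In the 4 libraries 85.4 to 87.0% of values under 20.5 reads were whole multiples of a read (within 0.02), so the signal was not treated as counts.

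The values were put on the scale log2(RPM + 1). A gene was tested when 2 of the 4 libraries reached 5 RPM, a filter that leaves out genes low at both ages and keeps a gene that is high at 1 of them. A gene kept through 1 age alone could only be called higher at that age. A limma-trend fit of the 10 retinal libraries in 5 groups (limma 3.58.1, R 4.3.3) gave the contrast P10 minus P6 and the difference between that step and the step from P4 CD73+ to P6. P-values are two-sided. The fit was tested on simulated data. Python 3.11.15 (pandas 2.3.3, NumPy 2.4.6, matplotlib 3.10.9) served for tables and plots. Genes were named by rule: Prdm1 and Nt5e, the 12 largest rises and falls among called genes with at least 20 RPM at the higher age and no overlap, up to 6 called genes and the 2 with the highest level of each of 32 lists, all tested members of the rod, outer segment, retinoid, factor and cone lists, and the 6 genes with the largest difference between steps that were called in opposite directions. A few genes that this rule names are not reported here. The members and lists were chosen with earlier results of these data known. Entrez IDs (24062 matched), positions and promoters came from RefSeq on GRCm38.p6. Alternatives were other pseudocounts (0.1 and 5), filters, scalings, a fit of the 4 libraries alone, no trend, the replicate number as a block and each library left out. Replicate numbers did not pair the P10 and P6 libraries.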

Additional observations from a re-analysis of the deposited data

Results flagged for a closer look

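At 45 genes the step from P6 to P10 and the step from P4 CD73+ to P6 were called in opposite directions, and 36 of them had at least 20 RPM in their higher group. The difference between the steps was called for all 45. That call adds little, since 2 called steps of opposite sign differ by the way the genes were chosen. The 2 steps share the P6 libraries, so each such gene is one at which both P6 libraries differ from the 2 P10 and the 2 P4 CD73+ libraries. The labels do not say whether the P6 animals or library preparation differed from the others in another way, so age and such a difference cannot be told apart at these genes. Of the 45, 10 lie on chromosome 11 (22.2%), which holds 875 of the 10772 tested genes (8.12%), 7 on chromosome 8 (15.6%, against 5.54% of tested genes) and 5 on chromosome 14 (11.1%, against 3.49% of tested genes).

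The 6 with the largest difference are given with their levels at P10, P6 and P4. Gm3893 (chromosome 4, 42089373 to 42092930, GRCm38.p6) had 0.19 and 0.336 RPM at P10, against 32.7 and 78.8 RPM at P6, and 0 and 1.38 RPM in the P4 CD73+ libraries, a difference between steps of -10.43 ± 1.40 (limma, adjusted p = 0.0005). It overlaps LOC100861647 in the annotation, so reads may be shared, and that gene was at 0 in the 4 libraries of both ages. Klhl33, a kelch-like gene (chromosome 14, 50888581 to 50897483), had 0.779 and 1.68 RPM at P10, against 37.3 and 48.8 RPM at P6, and 5.89 and 2.42 RPM at P4, a difference of -7.49 ± 0.76 (adjusted p = 6.3e-05). Pnp, which encodes purine nucleoside phosphorylase and lies on the same chromosome from 50944303 to 50953412, stood the same way, with 30.8 and 29.9 RPM at P10, against 224 and 162 RPM at P6, and 55.9 and 58.3 RPM at P4. A930018M24Rik had 1.30 and 0.336 RPM at P10, against 23.1 and 31.0 RPM at P6, and 2.83 and 1.85 RPM at P4, a difference of -7.05 ± 0.92 (adjusted p = 0.00038).

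Gm11546 (chromosome 11, 94797239 to 94802035) stood the other way, low at P6. It had 56.8 and 31.9 RPM at P10, against 4.39 and 4.84 RPM at P6, and 279 and 262 RPM at P4, a difference of 8.55 ± 0.45 (adjusted p = 2.8e-08). AA623943, which begins at 94812799 on the same chromosome, was also low at P6, with 96.2 and 56.4 RPM at P10, against 25.4 and 43.3 RPM at P6, and 467 and 404 RPM at P4. Its rise from P6 to P10 (1.13 ± 0.29) was smaller, a call lost without P10 replicate 1 or without P6 replicate 1. Lrrc48 had 39.7 and 49.1 RPM at P10, against 4.03 and 6.58 RPM at P6, and 35.1 and 29.9 RPM at P4, a difference of 5.31 ± 0.56 (adjusted p = 7e-05). It overlaps Tom1l2 in the annotation, so reads may be shared. Tom1l2 had 124 and 120 RPM at P10, against 104 and 116 RPM at P6, and 119 and 115 RPM in the P4 CD73+ libraries.

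Vsx1, a factor of cone bipolar cells, had 13.8 and 11.4 RPM at P10, against 38.4 and 51.5 RPM at P6, and 2.59 and 0.0265 RPM at P4, a difference of -6.31 ± 0.99 (adjusted p = 0.0016). Its call from P6 to P10 was lost without any 1 of the 4 libraries. The bipolar list rose with Vsx1 from P4 to P6 in 13 of 17 genes, against 1.75% of all tested genes. By the test of the difference, 9 of the 17 were lower in the later step than in the earlier one, against 314 of all 10772 tested genes. In the 16 libraries of other tissues none of these 6 genes but Lrrc48 exceeded 0.841 RPM, and Lrrc48 reached 8.03 RPM.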

How the results depend on the processing

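No named gene that was called reversed its direction under any alternative run, while genes near 0 that were not called, such as Neurod1, changed sign under some. Of the named genes under each alternative, 2687 values kept their call, 135 lost it and 21 gained one. Over all genes, 391 rises, 796 falls and 435 differences between steps became 603 rises with quantile normalization, 514 falls with a pseudocount of 5 RPM, 427 falls with at least 20 RPM in 2 libraries, where fewer genes were tested, and 182 differences without a filter and 214 without a trend; the cause was not tested in the other cases. Leaving out 1 library gave 214 to 343 rises, 588 to 797 falls and 88 to 455 differences. Of the list counts, 756 stayed within 1.5 times and 76 did not. The replicate numbers did not pair the P10 and P6 libraries, since the correlation between the deviations of libraries with the same number was 0.00, although it was 0.278 between the P4 CD73+ and P4 GFP+CD73- sorts; with the replicate block 395 genes rose, 808 fell and 473 differed between steps, and no count moved by over 1.5 times. With 2 libraries per age, an exact permutation test of a single value cannot go below p = 0.33, so the calls rest on the spread shared over genes and groups. At 2.58 M to 3.85 M reads per library, levels below about 1 RPM rest on a few reads, and changes among them were not detectable.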
